A study of Mus musculus with 12 samples.

Results

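The joint action of CD40 and TLR-2 signals on resting B (RB) cells was described from 8 of the 12 one-colour (Cy3) Agilent arrays of the series. RB cells were obtained by depleting CD43-bearing cells from spleens of BALB/c mice, labelled female and 6 weeks old, and every array was from cells cultured for 4 h. The 4 conditions, with 2 arrays each, were cells left unstimulated, cells given the TLR-2 ligand Pam2csk4, cells given anti-CD40, and cells given anti-CD40 together with Pam2csk4, which is called the combination. The other 4 arrays, from cells given anti-CD86 with and without Pam2csk4, enter where they are named. The dose of anti-CD40 was not given in the sources used here, and no isotype control was analysed here. The labels do not say whether the 2 arrays of a condition came from separate mice, so that p-values measure the spread between these arrays, which may be technical. The quantity described is the interaction, that is the log2 effect of the combination over unstimulated cells minus the sum of the log2 effects of both single signals. A value of 0 means that fold changes multiplied, a negative value that the combination lay below that product, and a positive value that it lay above.

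CD40 is a receptor of the TNF receptor family on B cells that is engaged by CD40 ligand on helper T cells. It recruits TRAF adaptors and activates both the canonical and the non-canonical NF-kB pathway. TLR-2 recognises bacterial lipoproteins, is the receptor for the ligand Pam2csk4, and signals through MyD88 and IRAK kinases to canonical NF-kB. Both routes therefore meet at the same transcription factor family, whose targets in B cells include survival factors, adhesion molecules, cytokine receptors and inhibitors of the pathway itself.

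The arrays lay on 2 slides. Slide 1 held both unstimulated arrays, both combination arrays and 1 array of each single signal, and slide 2 held the other array of each single signal. With the slide as a term in the fit, the interaction equals its slide 1 value, so that each single signal entered it through 1 array, and the slide 2 arrays entered the estimate of the spread only. The median standard error of an interaction was 0.151 on the log2 scale. The 2 arrays of a condition differed by a median of 0.0677 for unstimulated cells and 0.0814 for the combination, on 1 slide, and by 0.249 for Pam2csk4 and 0.31 for anti-CD40, across slides. Of the spots, 46.6% to 50.6% were well above background on 7 arrays and 60.6% on the anti-CD40 array of slide 2. All 8 B cell markers examined, among them Cd79a, Ms4a1 and Pax5, were well above background on all 8 arrays. So were 6 of 7 T cell markers, 4 of 5 NK cell markers, 3 of 4 red cell markers and all myeloid markers examined, among them Lyz2 and S100a8. Transcripts of other cell types were thus present, and their part in the results below was not tested. Of the 12 arrays, all had Ddx3y and Eif2s3y, genes of the Y chromosome, well above background, which goes against the label of female mice. The summed level of 4 liver genes (Alb, Apoa1, Apoa2 and Ttr) lay at 2.85 to 2.89 in unstimulated cells, 2.13 to 2.44 with Pam2csk4, 2.00 to 2.39 with anti-CD40 and -2.04 to -1.34 with the combination, as log2 signal less the 75th percentile of each array, the scale of all levels given here. Apoa2 was well above background on neither combination array, Alb and Apoa1 were on 1, and Ttr was on none of the 8 arrays. The combination arrays thus stood apart from the other arrays in their low level of liver-type transcripts, and the part of this in the results below was not tested.

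Of 30244 probes tested, the interaction passed an adjusted p of 0.05 in 396 probes, or 1.31%. It was above the sum of the single effects in 162 probes (0.536%) and below it in 234 (0.774%). In the same fit Pam2csk4 alone changed 570 probes (1.88%), anti-CD40 alone 10231 (33.8%) and the combination 14047 (46.4%). The count of interactions depended on the arrays of the single signals. It was 0 when the Pam2csk4 array of slide 1 or the anti-CD40 array of slide 1 was left out, where 5235 and 5399 probes had an unadjusted p under 0.05. It was 3 without either unstimulated array, 70 and 79 without a combination array, and 97 without the slide 2 array of either single signal.

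For the description of responses, a probe had to be well above background and unsaturated on all 8 arrays, to differ among the conditions, and to have a summed single effect or a combination effect of at least 1 log2 unit. There were 2523 such probes, and 1455 of them stayed within 1 log2 unit of the sum over the whole 95% interval of their interaction, which is the additive class. In 1297 of the additive probes the combination was also within 0.5 of the larger single effect, so that both descriptions applied to them. In 91 probes the combination had the direction of the sum and fell short of it, which is called the saturating class. The combination was within 0.5 of the larger single effect in only 25 of these, so that the name stands for falling short of the sum. In 92 probes it lay on the other side of the unstimulated level from the sum, and in 43 it exceeded the sum in size. Exceeding means a larger fall as well as a larger rise, and the sum was positive in only 8 of the 43. It was positive in 57 of the 91 saturating probes and in 46 of the 92. Probes for noncoding RNA made up 52 of the 91, 57 of the 92 and 3 of the 43. Slc7a1, Med1 and Ube2s, described below as above the sum, were among the 92. The remaining 842 probes were not resolved. With a narrower limit of 0.585 log2 units (1.5-fold) the additive class held 602 probes and 1695 were not resolved.

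**Figure D1:**
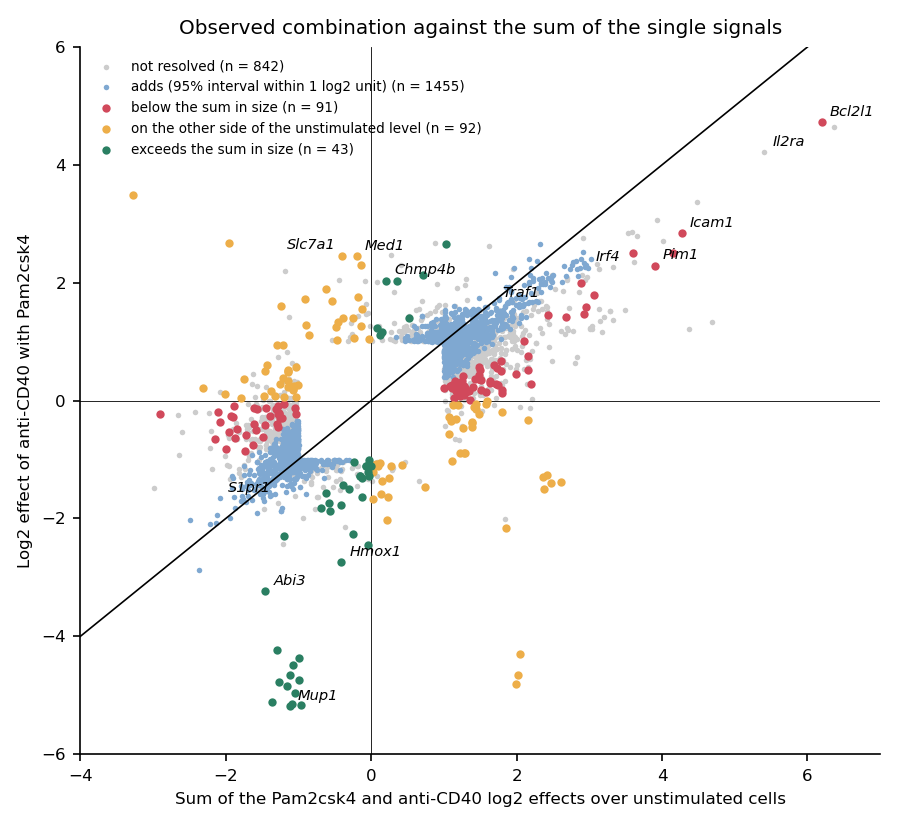
Log2 effect of the combination (vertical axis) against the sum of the log2 effects of Pam2csk4 and anti-CD40 (horizontal axis) for the 2523 classed probes, with the diagonal marking equality. Bcl2l1, Icam1 and Pim1 lay below the diagonal at a large positive sum, Med1, Slc7a1 and Chmp4b lay far above it near a sum of 0, the Mup1 group lay far below it, and 1 probe lies outside the axes.

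Saturation was seen in activation genes that both signals raised. Bcl2l1, which encodes the anti-apoptotic protein BCL-XL, read -0.35 and -0.48 on the unstimulated arrays, 1.82 and 1.78 with Pam2csk4, 3.54 and 3.34 with anti-CD40, and 4.39 and 4.22 with the combination. The 4 conditions did not overlap and the combination arrays were the highest. Pam2csk4 raised it by 2.28 ± 0.10 (SE, 2 arrays each), anti-CD40 by 3.92 ± 0.10 and the combination by 4.72 ± 0.09 on the log2 scale. The combination was thus 26.4-fold over unstimulated cells where the product of the single folds was 73.2, and the interaction was -1.47 ± 0.16 (adjusted p = 0.0422). A further probe well above background on all 8 arrays gave -1.72 (adjusted p = 0.101), and a dimmer one, detected on 6 arrays, gave -0.26 (adjusted p = 0.363).

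Icam1, an adhesion molecule that binds the integrin LFA-1, read 0.31 and 0.27 without stimulation, 1.78 and 1.78 with Pam2csk4, 3.07 and 2.91 with anti-CD40, and 3.16 and 3.11 with the combination. The combination arrays lay just above both anti-CD40 arrays, with a difference between these conditions of 0.10 (adjusted p = 0.381). The single effects were 1.53 and 2.74, the combination effect 2.84, and the interaction -1.42 ± 0.11 (adjusted p = 0.0222). Pim1, a serine/threonine kinase that promotes survival, read 2.77 and 2.89, 4.23 and 3.92, 5.33 and 4.86, and 5.10 and 5.13 in the same order. Here the combination arrays, both on slide 1, lay below the anti-CD40 array of slide 1 and above that of slide 2. The interaction was -1.61 ± 0.13 (adjusted p = 0.0229).

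Il2ra, the CD25 chain of the interleukin-2 receptor, read -1.85 and -1.82 without stimulation, -0.15 and 0.03 with Pam2csk4, 1.89 and 1.72 with anti-CD40, and 2.48 and 2.29 with the combination. All conditions were separate and the combination was the highest. Its interaction of -1.18 ± 0.20 had a 95% interval of -1.70 to -0.66 and did not pass after adjustment (adjusted p = 0.0748). Il21r and Glt25d1, chosen after their values were seen, passed. Il21r, a receptor for the helper T cell cytokine interleukin-21, had single effects of 0.81 and 1.86, a combination effect of 1.42 and an interaction of -1.26 (adjusted p = 0.0315). Glt25d1, a collagen galactosyltransferase, had an interaction of -0.88 (adjusted p = 0.0369). Among genes with smaller single effects, also chosen after their values were seen, St6galnac6, a sialyltransferase, rose by 0.75 and 1.04 with the single signals and by 0.19 with the combination, with an interaction of -1.61 (adjusted p = 0.0114). Ppp1r13l, an inhibitor of p53, had effects of 0.48, 1.31 and 0.13 and an interaction of -1.67 (adjusted p = 0.0243). In both genes the combination effect was smaller than either single effect. Their dimmer probes gave -0.65 and -0.42, neither of which passed.

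**Figure D2:**
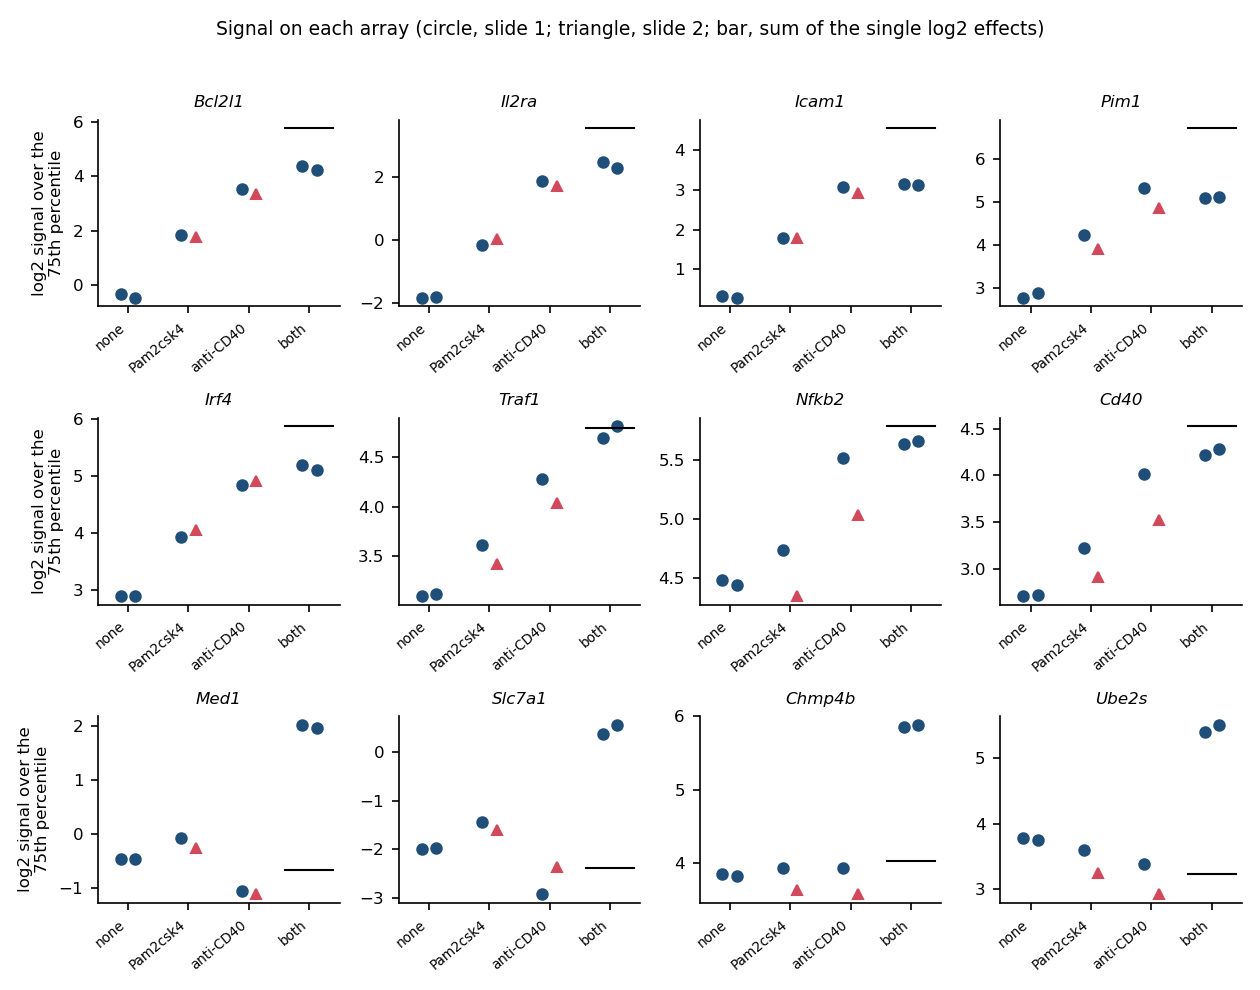
Log2 signal less the array's 75th percentile for 12 genes on each of the 8 arrays, with circles for slide 1, triangles for slide 2 and a bar at the level that the sum of the single log2 effects gives. The combination arrays of Bcl2l1, Il2ra, Icam1 and Pim1 lay under the bar, those of Traf1 at it, and those of Med1, Slc7a1, Chmp4b and Ube2s above it.

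Among classed probes, 18 gene symbols were at least 2-fold higher with each single signal. They included Bcl2l1, Il2ra, Icam1, Pim1, Irf4, Myc, Nfkbiz, Nfkbid and Bcl2a1b, and Btbd4 is an older name of Zbtb46 in the same set. All 18 interactions were negative, from -1.61 to -0.47 with a median of -0.82, and 3 passed the test. This direction is not independent of the choice, because the slide 1 arrays on which the single effects are high enter the interaction with a minus sign. The combination reached a median of 76.75% of the summed log2 effect, and it was within 0.5 of the larger single effect in 14 symbols and further above it in 4. On the linear scale the same arrays gave another picture. Against the sum of the linear increments over unstimulated cells, 11 of the 18 were above and 7 below, with a median of 0.03 on the log2 scale and a range of -0.58 to 0.46. Bcl2l1 was 0.46 above the linear sum, whereas Icam1 was 0.27 below it (-0.27) and Pim1 0.58 below it (-0.58). Icam1 and Pim1 thus lay below both sums, and Bcl2l1 below the sum of log2 effects only. The differences from the linear sum were not tested. Irf4, at -0.03, was at the linear sum.

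**Figure D3:**
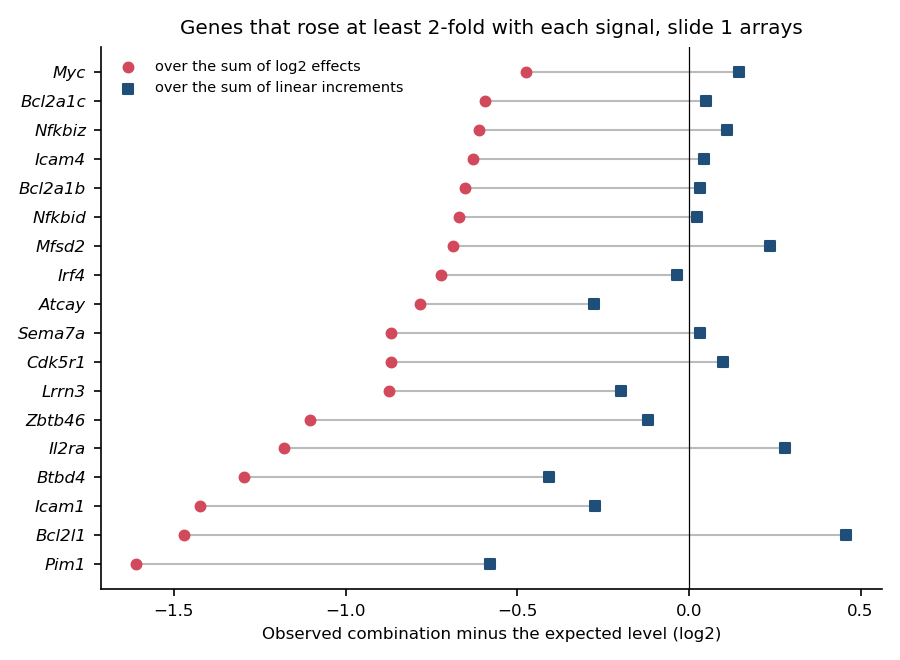
Difference of the combination from the level expected from the sum of log2 effects (circles) and from the sum of linear increments (squares), in log2 units, for the 18 symbols at least 2-fold higher with each signal. All circles lay left of 0, between -1.61 and -0.47, while the squares lay on both sides, between -0.58 and 0.46.

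Genes of the NF-kB and CD40 pathways rose with anti-CD40 and with the combination. Of 11 subunits and inhibitors of NF-kB, 10 rose with anti-CD40 and 10 with the combination, against 14.5% and 22.7% of all probes, and 3 with Pam2csk4, against 1.08%. The interaction passed in none, which at 1.31% of all probes is no result about so short a list, and 5 were in the additive class, which held 1455 of all 30244 probes, with a median interaction of -0.14. The median over the 14144 genes tested by their brightest probe was 0.08. Nfkb2, the precursor of the non-canonical subunit p52, read 4.49 and 4.44 without stimulation, 4.73 and 4.35 with Pam2csk4, 5.52 and 5.04 with anti-CD40, and 5.64 and 5.67 with the combination. The combination arrays were above all others, and the single-signal arrays were lower on slide 2 than on slide 1. Its interaction of -0.14 had an interval of -0.39 to 0.11. The atypical inhibitors Nfkbid and Nfkbiz, which encode nuclear IkB proteins, lay lower. Nfkbiz was the member with the larger Pam2csk4 effect, 1.93 against 1.08 for anti-CD40, and its combination effect was 2.41. Nfkbid had effects of 1.11, 1.83 and 2.27. Both were in the additive class by the limit of 1 log2 unit, although their intervals, -0.88 to -0.34 for Nfkbiz and -0.93 to -0.41 for Nfkbid, did not hold 0 before adjustment for many tests (adjusted p = 0.0752 and adjusted p = 0.062). The inhibitor Nfkbia was saturated on all 8 arrays and gave no response.

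Of 13 genes of CD40 proximal signalling, 9 rose and 1 fell with anti-CD40 (19.4% of all probes fell), 10 rose and 2 fell with the combination (23.7% fell), and none was called with Pam2csk4. The additive class held 6. The interaction passed in none, which at 1.31% of all probes is no result about so short a list, and its median was -0.02. Traf1, an adaptor that CD40 induces and binds, read 3.09 and 3.11 without stimulation, 3.61 and 3.42 with Pam2csk4, 4.28 and 4.04 with anti-CD40, and 4.70 and 4.81 with the combination. The conditions did not overlap, and the combination lay at the sum, with an interaction of -0.04 and an interval of -0.33 to 0.25. Cd40 itself rose by 1.26 with anti-CD40 and 1.54 with the combination, with an interaction of -0.27 (-0.59 to 0.04). Tnfaip3, the ubiquitin-editing inhibitor A20, had an interaction of -0.08, and Birc3, a cIAP ubiquitin ligase, one of -0.28. Traf5 fell by 1.20 with anti-CD40 and by 1.31 with the combination, and its interaction was 0.04 (adjusted p = 0.905).

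Promoters of these genes are shown because their members moved together. The letters of a kB site, that is GGG, any 3 bases and TTCC, were searched on both strands of RefSeq promoters of GRCm38.p6, windows of 300 bases around a gene start. They occurred in 5.56% of all 32851 promoters and 6.31% of genes. Of the genes at least 2-fold higher with each signal, 12 of 17 had a promoter in the table, and 3 of these held the letters (Bcl2l1, Il2ra and Nfkbid). The letters were in 7 of 12 CD40 proximal genes and in 5 of 8 NF-kB genes with a promoter. Parts of 3 promoters follow, 5′ to 3′ on the strand of the gene, with the matching letters in capitals, from Bcl2l1, which saturated on the log2 scale, and from Tnfaip3 and Nfkb2, which added. They lie at chr2:152830896-152830965 on the minus strand, chr10:19015411-19015452 on the minus strand and chr19:46304696-46304736 on the plus strand. A match is a description and not a measured binding site.
Bcl2l1: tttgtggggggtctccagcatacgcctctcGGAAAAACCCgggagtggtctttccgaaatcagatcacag
Tnfaip3: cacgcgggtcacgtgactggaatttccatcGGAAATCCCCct
Nfkb2: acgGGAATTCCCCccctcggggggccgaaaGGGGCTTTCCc

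Of 13 survival genes of the BCL2 and PIM families, 7 rose with anti-CD40 (14.5% of all probes), 7 with the combination (22.7%) and 6 with Pam2csk4 (1.08%), and 3 fell with anti-CD40 (19.4%) and 3 with the combination (23.7%). The interaction passed in 2 (1.31% of all probes), both below the sum (Bcl2l1 and Pim1, described above). The related kinases Pim2 and Pim3 had interactions of -0.62 (adjusted p = 0.0612) and -0.77 (adjusted p = 0.077), although a dimmer Pim2 probe gave -1.47 and passed (adjusted p = 0.0201), and the BCL2 relative Bcl2a1b, whose copies share sequence, one of -0.65 (adjusted p = 0.0856). The pro-apoptotic members Bbc3 and Pmaip1 fell with anti-CD40 and with the combination, and their interactions were 0.28 and 0.23. Of 14 regulators of B cell fate, none passed. Irf4, a transcription factor needed for class switching and plasma cells, read 2.90 and 2.90 without stimulation, 3.93 and 4.06 with Pam2csk4, 4.84 and 4.92 with anti-CD40, and 5.20 and 5.12 with the combination. The conditions were separate. Its interaction of -0.72 had an interval of -0.97 to -0.47 (adjusted p = 0.0558). Batf, an AP-1 family factor, had effects of 0.87, 1.57 and 2.08 and an interaction of -0.36 (adjusted p = 0.25).

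Of 21 growth genes tested, 1 was above the sum and 1 below it, against 0.536% and 0.774% of all probes. Myc had effects of 1.00, 1.77 and 2.29 and an interaction of -0.47 (adjusted p = 0.101), and Ccnd2, encoding cyclin D2, effects of 0.73, 2.16 and 2.14 and an interaction of -0.75 (adjusted p = 0.0597). A dimmer Ccnd2 probe passed, at -1.36 (adjusted p = 0.0187), and another gave -0.89 (adjusted p = 0.0618). Nolc1, a nucleolar phosphoprotein, added, with effects of 0.51, 1.71 and 2.07 and an interaction of -0.15. Cdkn1a, the inhibitor p21 of cyclin-dependent kinases, read 1.06 and 1.08 without stimulation, 1.09 and 0.69 with Pam2csk4, 0.55 and -0.01 with anti-CD40, and 1.57 and 1.63 with the combination. The anti-CD40 arrays were the lowest and the combination arrays the highest, and the interaction was 1.03 ± 0.11 (adjusted p = 0.0409). Ncl, encoding nucleolin, depended on the probe. Its brightest probe, saturated on 1 array, gave -1.40 (adjusted p = 0.0151) and another gave -1.49 (adjusted p = 0.0178), while the other two gave 0.30 and -0.26, neither of which passed.

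Of 15 cytokines tested, Pam2csk4 raised 4, against 1.08% of all probes. These were Il1b, Il6, Il10 and Tnf, whose interactions lay between -0.20 and -0.00. Il1b, encoding interleukin-1β, rose by 0.83 with Pam2csk4 and fell by 0.32 with anti-CD40, and with the combination it rose by 0.51, with an interaction of -0.00 (adjusted p = 0.991). Il10 rose by 0.70 with Pam2csk4 and by 0.53 with the combination, with an anti-CD40 effect of 0.00 and an interaction of -0.17. Tnf rose by 1.40, 0.46 and 1.66, with an interaction of -0.20. The chemokine Ccl3 fell by 0.27 with anti-CD40 and rose by 0.27 with the combination, its Pam2csk4 effect was 0.51 (adjusted p = 0.0513), and its interaction was 0.03. Clcf1, a B cell stimulating cytokine, had effects of 0.77 (adjusted p = 0.053), 0.55 and 0.67 and an interaction of -0.64 with an interval of -1.09 to -0.20 (adjusted p = 0.133). The interaction passed in none of the 15 cytokines and in 1 of 11 chemokines, Xcl1, counts too small to set apart from the 1.31% of all probes. Xcl1, encoding lymphotactin, read 0.77 and 0.76 without stimulation, 0.66 and 0.30 with Pam2csk4, -0.08 and -0.43 with anti-CD40, and 0.50 and 0.49 with the combination. The combination arrays, both on slide 1, were below the unstimulated ones and above the anti-CD40 ones. They were below the Pam2csk4 array of slide 1 and above that of slide 2. The interaction was 0.68 ± 0.08 (adjusted p = 0.0487).

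In the other lists the interaction passed in 1 gene or none, against 1.31% of all probes. Of 16 activation antigens, Icam1 was below the sum and no other passed. Cd69, an early activation antigen, had an interaction of -0.31 (adjusted p = 0.224), Fas one of -0.21 and Slamf1 one of 0.20, and Cd83 was saturated on all arrays. None of 18 trafficking genes passed. S1pr1, the receptor for egress from lymphoid organs, fell by 1.74 with anti-CD40 and by 1.66 with the combination, with a Pam2csk4 effect of -0.34 and an interaction of 0.43 (adjusted p = 0.205). Cxcr5, which guides B cells to follicles, rose by 0.70, 1.23 and 1.49, with an interaction of -0.44 (adjusted p = 0.106). None passed among 11 genes of the TLR2 and MyD88 pathway, where Tlr1 had effects of 0.80, 1.84 and 1.85 and an interaction of -0.79 (adjusted p = 0.0672), and Tlr2 one of 0.19. None passed among 16 immediate early factors, 16 feedback inhibitors, 15 interferon-stimulated genes and 17 genes of sterol and glucose metabolism, with medians of 0.17, 0.06, 0.03 and 0.06. The lowest adjusted p of the immediate early list was that of Nr4a2, at 0.68 (adjusted p = 0.0554).

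**Figure D4:**
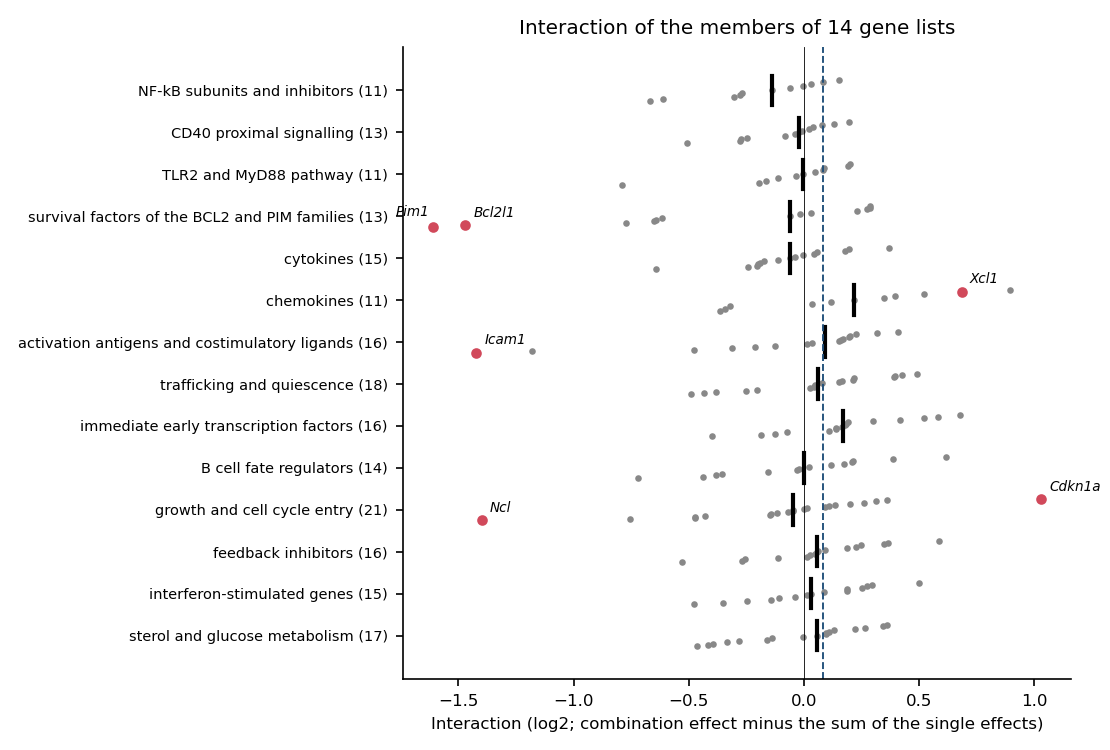
Interaction in log2 units (horizontal axis) of the tested members of 14 gene lists, with the number tested in parentheses, a short bar at the median of each list and a dashed line at the median of 0.08 over the brightest probes of all genes. Members that passed the test are large and named, and the medians of all lists lie between -0.14 and 0.22.

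The genes furthest above the sum were not in these lists. By brightest probe, 48 genes detected and unsaturated on all 8 arrays were above the sum, against 54 below, of which 11 were liver-type genes or pseudogenes. In 50 of these 102 genes both single effects were under 0.5 in size. Chmp4b, a subunit of the ESCRT-III membrane scission complex, read 3.84 and 3.82 without stimulation, 3.94 and 3.63 with Pam2csk4, 3.93 and 3.57 with anti-CD40, and 5.85 and 5.89 with the combination. Only the combination arrays stood apart among these 8. The interaction was 1.84 ± 0.09 (adjusted p = 0.00948), and a second probe of the gene gave 0.60 (adjusted p = 0.0636).

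Med1, a subunit of the Mediator complex, read -0.47 and -0.47 without stimulation, -0.08 and -0.26 with Pam2csk4, -1.07 and -1.12 with anti-CD40, and 2.02 and 1.95 with the combination. The anti-CD40 arrays were the lowest and the combination arrays the highest. The interaction was 2.66 ± 0.10 (adjusted p = 0.00598), whereas both other probes of Med1 gave 0.16 (adjusted p = 0.451 and adjusted p = 0.539). Ube2s, a ubiquitin-conjugating enzyme of the anaphase-promoting complex with 1 probe, read 3.78 and 3.76, 3.61 and 3.25, 3.39 and 2.92, and 5.40 and 5.51 in the order of conditions above, with an interaction of 2.23 ± 0.11 (adjusted p = 0.0109). Slc7a1, a transporter of arginine and lysine, had the highest interaction of these genes, 2.87 ± 0.33 (adjusted p = 0.0456), with effects of 0.35, -0.76 and 2.46.

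The other genes among the 10 highest were Tm4sf4 (2.85), Lsm14b (2.18), Aph1a (2.16), Cpxm2 (2.12), Raly (1.97) and BC051226 (1.80). Second probes of Lsm14b and Aph1a gave -0.17 and 0.62, neither of which passed. Raly and, further down the order, Taf15, at 1.41 with a second probe at 0.26, encode RNA-binding proteins. For Cpxm2 and BC051226 the single effects were negative (-1.34 and -0.68, and -0.86 and -1.03) and the combination lay near the unstimulated level, at 0.11 and -0.09. Rab5c and Plagl2, chosen after their values were seen, exceeded a sum that was itself positive. Rab5c, a GTPase of early endosomes, read 3.47 and 3.47 without stimulation, 4.48 and 4.25 with Pam2csk4, 3.17 and 2.76 with anti-CD40, and 5.60 and 5.59 with the combination. The Pam2csk4 arrays were above and the anti-CD40 arrays below the unstimulated ones, and the interaction was 1.42 ± 0.11 (adjusted p = 0.022). Plagl2, a zinc finger transcription factor, had effects of 0.63, 0.40 and 2.65 and an interaction of 1.63 (adjusted p = 0.0149).

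Outside the liver-type genes and pseudogenes, the genes described next were among those furthest below the sum. They were chosen after their values were seen, and fell with the combination. Hmox1, encoding heme oxygenase, read 3.81 and 3.81 without stimulation, 3.60 and 3.32 with Pam2csk4, 3.60 and 3.11 with anti-CD40, and 1.02 and 1.12 with the combination. The combination arrays were far under all others, and the interaction was -2.32 ± 0.13 (adjusted p = 0.0149). Abi3, an adaptor of the WAVE actin-regulating complex, fell by 1.24 with anti-CD40 and by 3.24 with the combination, with an interaction of -1.78 (adjusted p = 0.0154). Gar1 and Surf6, both nucleolar, rose by 1.13 and 0.70 with anti-CD40 and fell by 0.57 and 1.47 with the combination, with interactions of -1.64 and -2.21.

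The 10 lowest genes were all of liver-secreted or liver-type proteins, and their values moved with the liver markers given above. They were Mup1, Mup2, Mup3, Mup4 and 3 Mup pseudogenes, which encode or resemble the major urinary proteins, Fabp1, a fatty acid binding protein, Serpina1d, an antitrypsin, and Ahsg, or fetuin-A. Mup1 read 3.82 and 3.87 without stimulation, 3.29 and 3.06 with Pam2csk4, 3.28 and 2.99 with anti-CD40, and -1.30 and -1.38 with the combination. On the anti-CD86 arrays it read 2.88 and 2.75, and with Pam2csk4 added 2.97 and 2.74. The combination arrays alone were low, with an interaction of -4.06 ± 0.10 (adjusted p = 0.00253). Fabp1 had an interaction of -3.50 ± 0.28 and Ahsg one of -2.94 ± 0.12. A set of 36 probes for 30 liver-type genes and pseudogenes was chosen after the values were seen, so its counts are a description. Of these probes, 35 had a negative interaction, against 42.9% of all probes. Below the sum were 23, against 0.774% of all probes, and none was called above. On neither combination array were 16 of them well above background. Copies of the Mup genes are nearly identical, so that the 21 Mup probes are not independent. Apoa2, detected on neither combination array, was at least 29.4-fold lower in the combination than in unstimulated cells. No tested member of the red cell, myeloid, T cell, NK cell or plasma cell marker lists passed the interaction test. At 1.31% of all probes this is no result about such short lists. S100a9 and Igj were also saturated on 8 arrays and Lyz2 on 7.

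Probes for noncoding RNA made up 163 of the 396 calls (41.2%) and 7796 of the 30244 probes tested (25.8%), and their calls went both ways, with 75 above the sum and 88 below it. Starting from the probe n207171, probes that shared at least 8 stretches of 12 bases with it on either strand were added. Probes that shared as many with this enlarged set were then added too, so that some share few or no stretches with n207171 itself. The 20 probes were collected after their values were seen, so their counts are a description. Their letters are those of the major satellite, the repeat of mouse pericentromeric heterochromatin, which is present in many copies and so can bind transcripts of many loci. In these, 13 interactions were called below the sum, none above, and 19 were negative. In the orientation of n207171 there were 2 probes (-6.80 and -6.67) and in the opposite one 18, from -4.02 to 0.26 with a median of -2.34. A further probe, n196535, shared stretches with n207171 in its orientation but too few to be collected. Its interaction was -6.35 (adjusted p = 0.00131). Probe sequences from the deposited files follow, 5′ to 3′, with a probe of the first strand and 2 of the other, and capitals mark bases in the 12-base stretches shared with n207171 on either strand.
n207171: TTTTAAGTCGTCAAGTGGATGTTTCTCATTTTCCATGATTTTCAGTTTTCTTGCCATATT
n196529: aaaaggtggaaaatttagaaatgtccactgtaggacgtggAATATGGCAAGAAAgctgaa
n196533: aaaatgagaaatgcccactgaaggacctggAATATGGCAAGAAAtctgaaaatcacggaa

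The probe n207171 read 4.38 and 4.46 without stimulation, 4.65 and 4.65 with Pam2csk4, 6.20 and 6.10 with anti-CD40, and -0.22 and -0.26 with the combination. Anti-CD40 alone was the highest and the combination the lowest, and neither overlapped with another condition. The interaction was -6.67 ± 0.11 (adjusted p = 0.00131). On the anti-CD86 arrays it read 3.87 and 4.02, and with Pam2csk4 added 1.72 and 1.97. The probe n196529 of the opposite strand had an interaction of -3.87 (adjusted p = 0.00318). Anti-CD40 had a positive effect on all 20 probes, and the combination a negative one on 15. A probe with other letters, u180979, had the lowest interaction. It was well above background on neither combination array and was at least 68.2-fold higher with anti-CD40 than with the combination.

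**Figure D5:**
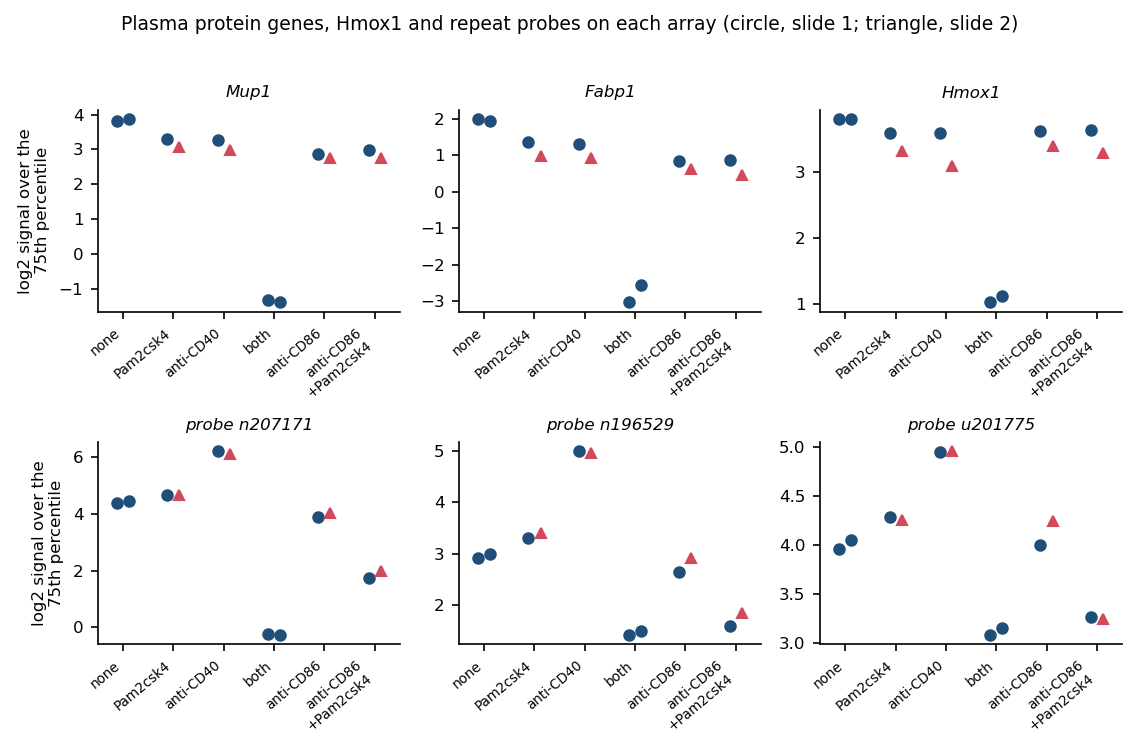
Log2 signal less the array's 75th percentile for Mup1, Fabp1, Hmox1 and 3 satellite repeat probes on all 12 arrays, with circles for slide 1 and triangles for slide 2. The combination arrays, named both, are the lowest in all 6 panels, and the anti-CD40 arrays are the highest in the 3 repeat panels.

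The anti-CD86 arrays allowed the question whether the joint effect was that of Pam2csk4 with any second signal. In a fit of all 12 arrays, a test added after the data were seen, the interaction with anti-CD86 passed in 80 of 30232 probes (0.265%) and that with anti-CD40 in 2926 (9.68%), 1727 above the sum and 1199 below it. Without the slide block the latter count was 383, with 177 above and 206 below. The difference between both interactions passed in 2588 (8.56%). Both interactions share the unstimulated and Pam2csk4 arrays. For Bcl2l1, anti-CD86 alone read -0.27 and -0.22 and with Pam2csk4 1.98 and 1.75, close to the 1.82 and 1.78 of Pam2csk4 alone, and the difference between the interactions was -1.29 (adjusted p = 0.00565). The differences of Icam1 and Pim1 were -1.04 and -1.08 (adjusted p = 0.00339 and adjusted p = 0.00345), and those of Hmox1 and Mup1 -2.40 and -4.63. Rab5c and Ube2s had interactions of opposite sign, 1.44 and 2.26 with anti-CD40 and -1.64 and -0.75 with anti-CD86, with differences of 3.08 and 3.01 (adjusted p = 1.95e-05 for both). Med1 was above the sum with both, at 2.68 and 2.26, with a difference of 0.43 (adjusted p = 0.0386). For Cpxm2 and Tm4sf4 the interactions were 2.10 and 1.90, and 2.77 and 2.19, and the differences did not pass (adjusted p = 0.494 and adjusted p = 0.187).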

How the data were processed

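Per the labels, each array holds Cy3-labelled RNA of 1 sample. Signals were extracted by the authors with Agilent software, and what they deposited for each array is intensity per spot. The processed signal intensity, corrected for background within each array, was used as log2 minus the array's 75th percentile. A log2 table that the authors deposited served as an alternative. It equalled the log2 processed intensity minus 1 constant per array, close to that percentile, and its columns ran in the direction of the intensities. The genome build of probe positions was not used here.

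Control and outlier spots (6 to 35 per array) were left out, saturated spots (987 to 1206) were kept, and spots of 1 probe were averaged. Of 61307 probes, 30302 passed the filter, which asked for detection above background in both replicates of 1 or more of the 4 conditions. From these 58 with a missing value were left out. Names are the symbols in the files, and 34536 of 40628 probes outside the noncoding set had a RefSeq name. With single arrays or pairs, the number of arrays limits the precision.

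The model was fitted in R 4.3.3 by limma 3.58.1, with a coefficient per condition and the slide (from the array barcode) as a block, empirical Bayes moderation and Benjamini-Hochberg adjustment over all probes tested, called at an adjusted p under 0.05. The fit had 3 residual degrees of freedom. The script was tested on simulated data. Replicate numbers were not used to pair the samples. The difference between replicates correlated at 0.11 between unstimulated and combination, 0.72 between the single signals, which share slides, and -0.03 to 0.09 otherwise. For each single signal this difference is also that between the slides. Only the 0.11 therefore bears on pairing, which was not settled.

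Genes named are the 10 highest and 10 lowest called interactions by brightest probe, the 10 additive genes with the largest sums, up to 4 members per gene list with the largest interaction, and a fixed set of activation genes. Others are said to have been chosen after their values were seen, or are further members of the gene lists, picked with values in view. The members, lists and rules were chosen with earlier results of these data known. Promoters were read from a RefSeq table of GRCm38.p6. Alternatives were other normalizations, background corrections, filters, priors, sets of arrays and blocks. Python 3.11.15 was used for sequences and plots.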

Additional observations from a re-analysis of the deposited data

Results flagged for a closer look

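The effect of Pam2csk4 differed between cells with and without anti-CD40 in 396 probes, by a test of the difference itself. It moved both ways, with genes such as Med1 and Chmp4b above the sum and Pim1, Hmox1 and Mup1 below it. The interaction of Pam2csk4 differed between anti-CD40 and anti-CD86 in 2588 probes, 1469 higher and 1119 lower with anti-CD40, in the fit of 12 arrays with the slide block. The interaction with anti-CD40 passed in 2926 probes in that fit and in 383 without the block. Of the 396 probes, 326 were also called for the difference between both interactions, and both tests share the anti-CD40 and combination arrays.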

How the results depend on the processing

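Of 30244 probes, 396 were called. The count was 201 without the slide block, 97 on slide 1 arrays alone, 2926 with all 12 arrays and the slide block (383 without it), 661 with median scaling, 1047 with normexp, 1123 among probes well above background on all 8 arrays, 4 without a filter on dim probes, 3071 with a trend in the prior variance, and 96 without moderation and without the block. Leaving out 1 array gave 0 to 97. A replicate block gave 17 with the slide block and 163 without it. It was 594 with quantile normalization. Calls above and below the sum numbered 162 and 234, against 1727 and 1199 with 12 arrays, 1775 and 1296 with the trend, and 2 and 15 and 42 and 121 with the replicate blocks. All 396 kept their sign where tested, except 2 in each of the 4 settings without the slide block. Of 116 named genes, 47 were called, all 47 kept their sign in 23 alternatives and none was called in all of them. With the slide block the estimate is the slide 1 value. Settings that changed only the filter or the prior, or left out a slide 2 array, therefore repeated it and could not turn a sign. Leaving out either slide 2 array gave the same counts as slide 1 arrays alone. The called genes among these had 18 other tested probes, of which 14 had the same sign and only 5 were also called. Other probes of the same gene turned the sign for Lsm14b (-0.17), Map3k10 (-2.03), Zfp445 (-0.39) and Ncl (0.30). The cause of these differences between probes was not tested. The additive class held 0 probes with median scaling, where the median standard error was 0.512 against 0.151, and up to 1478 on slide 1 alone. With a single array per single signal on slide 1, the number of arrays limits every interaction.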

Other observations

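Further members of the gene lists changed with anti-CD40 and with the combination. Id3, an inhibitor of E proteins, fell by 0.81 with anti-CD40 and by 1.15 with the combination (adjusted p = 0.00106), with an interaction of -0.38 (adjusted p = 0.16). Srm, encoding spermidine synthase, rose by 0.86 and 1.31, with an interaction of 0.09. Dusp1, a phosphatase of MAP kinases, rose by 0.58 and 1.11, with an interaction of 0.25. Socs1 and Socs3, inhibitors of cytokine receptors, fell by 0.82 and 0.58 with anti-CD40 and by 0.89 and 0.79 with the combination. None of their interactions passed the test.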
